A study of Mus musculus with 10 samples.

Results

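Of the 37513 peaks counted in mouse lung and brain, 1532 lay on an autosome, overlapped no protein-coding gene and had their centre more than 100 kb from every end of a protein-coding gene. These distal peaks were found by position alone, from mm10 peak coordinates and RefSeq gene ends in GRCm38.p6 (one assembly under both names). No read count entered the rule, but the peak set was chosen with earlier results of these data known. Another 55 peaks on the sex chromosomes met the distance limit and were not included. The assay was ATAC-seq, in which the transposase Tn5 inserts sequencing adapters into open chromatin, so that the number of reads over a peak measures its accessibility. Fresh frozen sections of lung and brain from wild-type C57BL/6J mice were treated with Tn5 on the slide, and nuclei were then cut out at random with a laser (laser-capture microdissection). A library, called a mini-bulk, held either 50 nuclei captured singly or about 200 nuclei in 10 areas of about 20, with 3 lung and 2 brain libraries at either size. The labels call these libraries technical replicates and give no animal, age or sex, so the p-values measure only the spread between these libraries. A tissue here is a mixture of cell types, and more nuclei of a type cannot be told apart from more accessibility per nucleus.

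Open chromatin far from promoters is often enhancer sequence, where transcription factors bind and act on a promoter over a loop of chromatin. Enhancers differ between cell types more than promoters do, and long stretches without coding genes, called gene deserts, often flank genes of development that are switched on in several tissues. Such stretches also hold long non-coding RNA (lncRNA) genes, whose promoters are open chromatin as well.

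Sequence was at hand for the 50 distal peaks that overlapped a RefSeq promoter window, from 250 bases before to 50 after a start site. All 49 genes with such a window were lncRNA genes. Printed here are 6 windows, chosen after the values were seen. They are windows under distal peaks open in both tissues (Gm26901, Dubr), called higher in lung (Gm13816) or called higher in brain (9530059O14Rik, Gm32810, Gm6145). Capitals mark matches on either strand to the GC box GGGCGG, the TATA box TATAAA, the CCAAT box CCAAT, the E-box CAGCTG and the AP-1 site TGANTCA. The windows lie at chr1:7398047-7398346 (minus strand), chr16:50732724-50733023 (minus), chr2:92741980-92742279 (plus), chr9:122572251-122572550 (plus), chr1:112416869-112417168 (minus) and chr14:105631275-105631574 (minus), in GRCm38.p6, each written 5′ to 3′ along its gene.
Gm26901: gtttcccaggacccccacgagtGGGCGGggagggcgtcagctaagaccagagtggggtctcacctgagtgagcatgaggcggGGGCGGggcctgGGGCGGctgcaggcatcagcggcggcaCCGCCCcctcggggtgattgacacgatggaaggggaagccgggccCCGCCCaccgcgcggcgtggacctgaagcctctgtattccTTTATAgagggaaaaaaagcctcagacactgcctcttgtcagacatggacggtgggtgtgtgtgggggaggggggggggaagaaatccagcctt
Dubr: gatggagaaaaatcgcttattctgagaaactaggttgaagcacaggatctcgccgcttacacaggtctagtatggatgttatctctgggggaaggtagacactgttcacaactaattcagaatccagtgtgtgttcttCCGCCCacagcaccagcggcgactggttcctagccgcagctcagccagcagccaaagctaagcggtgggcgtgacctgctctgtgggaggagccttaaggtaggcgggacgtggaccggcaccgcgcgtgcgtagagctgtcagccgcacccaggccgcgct
Gm13816: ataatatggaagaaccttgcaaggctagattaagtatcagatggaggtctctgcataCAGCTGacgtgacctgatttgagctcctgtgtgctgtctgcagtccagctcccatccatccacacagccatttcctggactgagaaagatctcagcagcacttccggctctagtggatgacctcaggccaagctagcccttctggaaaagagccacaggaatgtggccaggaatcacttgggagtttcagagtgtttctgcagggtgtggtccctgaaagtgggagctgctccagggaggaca
9530059O14Rik: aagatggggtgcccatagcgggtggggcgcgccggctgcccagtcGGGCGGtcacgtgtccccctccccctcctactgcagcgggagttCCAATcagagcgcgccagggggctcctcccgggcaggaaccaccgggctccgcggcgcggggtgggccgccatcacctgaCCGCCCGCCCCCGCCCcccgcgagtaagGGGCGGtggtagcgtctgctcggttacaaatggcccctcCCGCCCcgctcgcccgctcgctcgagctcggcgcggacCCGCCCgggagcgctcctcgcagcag
Gm32810: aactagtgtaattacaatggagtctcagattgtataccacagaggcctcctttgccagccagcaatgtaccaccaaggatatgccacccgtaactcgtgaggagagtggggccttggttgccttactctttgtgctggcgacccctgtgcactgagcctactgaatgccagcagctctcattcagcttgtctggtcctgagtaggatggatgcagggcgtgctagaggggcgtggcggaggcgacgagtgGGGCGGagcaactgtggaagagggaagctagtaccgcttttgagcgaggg
Gm6145: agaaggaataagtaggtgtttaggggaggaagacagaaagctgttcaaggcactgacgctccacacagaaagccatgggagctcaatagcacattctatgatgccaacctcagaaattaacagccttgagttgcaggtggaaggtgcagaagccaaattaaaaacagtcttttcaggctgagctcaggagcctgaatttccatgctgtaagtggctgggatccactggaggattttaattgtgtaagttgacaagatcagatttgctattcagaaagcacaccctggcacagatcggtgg

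The 9530059O14Rik window held 38 CG dinucleotides and 7 GC boxes, and the Gm26901 window held 18 CG dinucleotides and 5 GC boxes. The Gm13816 and Gm6145 windows each held 2 CG dinucleotides and no GC box. Over the 52 windows under distal peaks, counting alternative starts, the GC box was present in 23.1%, against 36.0% of all 31365 windows in the table. The AP-1 letters were present in 15.4% against 7.85%, the E-box in 23.1% against 16.3%, the CCAAT box in 40.4% against 37.3% and the TATA box in 15.4% against 13.6%. With 8 to 21 windows behind each share, these are descriptions of letters, not of bound sites. Of the 50 distal peaks over a window, 7 were called higher in brain and 1 in lung by the tissue test described below, which called 5.78% and 4.35% of all peaks. Of the 7 brain calls, 3 were each lost without any 1 of 6 libraries. They were chr1:35869895-35869997 (adjusted p up to 0.1495) and chr9:111918707-111918822 (up to 0.0916), each without any brain library or replicate 2 or 3 of lung at 200 nuclei, and chr10:98807149-98807239 (up to 0.0783), without any brain library or replicate 1 or 3 of lung at 200.

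Reads per library ranged from 573596 to 10973796, and those on nuclear peaks from 319307 to 3075377. Mitochondrial peaks took 24.7% to 58.0% of the reads in lung and 93.4% to 95.8% in brain, so brain libraries held at most 465489 nuclear reads. Replicates 2 and 3 of lung at 50 nuclei stood apart, with a read in 60.9% and 56.1% of the nuclear peaks, against 86.2% to 97.6% in the other libraries. All levels are given as reads per 1000000 nuclear-peak reads (RPM). Peaks near 12 endothelial marker genes summed to 1652 to 2449 RPM in lung and 524 to 749.8 in brain. Peaks near 8 neuronal genes summed to 21.9 to 99.8 RPM in lung and 279 to 376 in brain. Sums for the alveolar type 2 list overlapped, at 267 to 382 RPM in lung and 337 to 415 in brain, and its defining gene Sftpc had no peak. The glial genes Olig2, Aqp4 and Cx3cr1 had no peak either.

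Distal peaks were narrow and low. Their median width was 127.5 bp (quartiles 98 to 192, range 90 to 866), against 139 bp for the 8590 other intergenic peaks, 139 bp for gene-body peaks and 243 bp for peaks within 1 kb of a coding gene end, here called gene-end peaks. Their median level, averaged over the 4 groups of libraries, was 7.88 RPM, against 10.6 RPM at other intergenic, 11.3 at gene-body and 25.5 at gene-end peaks. Per 100 bp of width the medians were 5.85 RPM at distal peaks, 7.39 at other intergenic, 7.99 at gene-body and 10.9 at gene-end peaks, so the order of the 4 classes was the same per length. The nearest coding gene end was a median of 174 kb away (quartiles 127 to 265 kb, farthest 1524 kb). The 599 peaks at 100 to 150 kb had a median width of 134 bp and level of 8.45 RPM, and the 98 peaks beyond 500 kb had 109 bp and 5.88 RPM. At the limit itself the values did not step: the 90 peaks just inside, at 100 to 105 kb, had medians of 127.5 bp and 8.09 RPM, and the 99 intergenic peaks at 95 to 100 kb had 120 bp and 8.37 RPM. Of the 2 peaks nearest to the limit on its inner side, the one 100.06 kb from Zfp236, a zinc finger gene, was at 11.1 RPM and the one 100.09 kb from Cops8, a subunit of the COP9 signalosome, at 8.03 RPM. The 2 nearest on the outer side were at 7.28 RPM, beside Btg1, and 1.55 RPM, beside Zfp236.

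The distal peaks were spread unevenly over the genome. Chromosome 13 held 130 of them, 8.10% of its peaks, followed by chromosome 16 with 6.64% and chromosome 3 with 5.91%. On chromosomes 19, 11 and 7 they made up 1.87%, 2.05% and 2.06% of the peaks. They fell into 511 intervals between neighbouring coding genes, with a median length of 577 kb. A single distal peak was present in 222 intervals, and the 27 intervals with 10 or more held 341 of the 1532.

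Distal peaks took a larger share of the nuclear reads in every lung library than in any brain library. In lung their share was 1.96%, 2.0% and 1.90% at 50 nuclei and 1.87%, 2.11% and 2.02% at 200, a mean of 1.98% ± 0.0852 (SD, n = 6). In brain it was 1.51% and 1.33% at 50 nuclei and 1.28% and 1.25% at 200, a mean of 1.34% ± 0.116 (SD, n = 4). The exact binomial 95% intervals, which cover counting error only, ran from 1.85% to 1.89% for the lowest lung library and from 1.47% to 1.55% for the highest brain library. The ratio of the means, lung over brain, was 1.47 for distal peaks, 1.27 for other intergenic, 1.12 for gene-body and 0.896 for gene-end peaks. Without the 5 distal peaks of the highest level the shares were 1.90% ± 0.0871 in lung (SD, n = 6) and 1.28% ± 0.126 in brain (SD, n = 4). The mitochondrial share also separated the tissues completely, and its part in these differences was not tested.

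**Figure D1:**
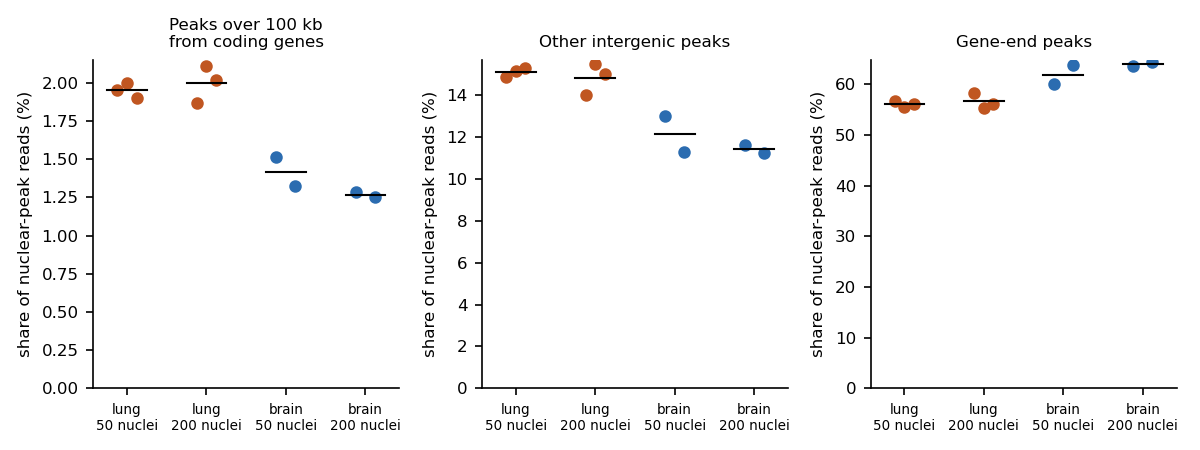
Share of nuclear-peak reads (%) in distal, other intergenic and gene-end peaks. Each point is a library, each bar a group mean, and each vertical axis starts at 0 with its own scale. For distal peaks all lung points, at 1.87% to 2.11%, lie above all brain points, at 1.25% to 1.51%, while for gene-end peaks the brain points lie higher.

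The single distal peak was often not reached. In lung 86.1%, 47.7% and 40.0% of them had a read at 50 nuclei, and 92.4%, 94.7% and 94.5% at 200. In brain the shares were 87.4% and 76.6% at 50 nuclei and 70.4% and 80.4% at 200. After each library was thinned to 319307 nuclear reads, the lung libraries of 50 nuclei stood at 76.6%, 47.5% and 38.7% and the other libraries between 66.2% and 84.9%. Replicates 2 and 3 of lung at 50 nuclei thus reached fewer distal peaks than all other libraries at equal depth, and results are given below without them where they move. Levels over the distal peaks hardly correlated between the tissues. Across the 1532 peaks, which are not independent replicates, log2(RPM + 1) correlated between libraries of different tissues with a median Pearson r of 0.0591 over 24 pairs. Within lung the median was 0.436 and within brain 0.397. At other intergenic peaks the medians were 0.219 between tissues, 0.507 within lung and 0.529 within brain. At gene-end peaks, which were deeper, the medians were 0.700 between tissues, 0.728 within lung and 0.790 within brain. The median distal peak had only 2 or 3 reads in a brain library, and the part of counting error in these correlations was not tested.

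For the tissue difference at single peaks, brain was compared with lung averaged over the 2 mini-bulk sizes, with edgeR's quasi-likelihood test over all 37466 peaks that had at least 10 reads and an adjusted p (Benjamini-Hochberg) under 0.05 as a call. Of the 1528 distal peaks tested, 221 were called, or 14.5%, against 10.1% of all peaks. Higher in brain were 115 (7.53%, against 5.78% of all peaks), and higher in lung were 106 (6.94%, against 4.35%). The median log2 fold change, brain over lung, was -0.72 over the distal peaks tested and 0.07 over all peaks. Calls at other intergenic peaks stood at 4.65% for brain and 6.76% for lung, and at gene-end peaks at 6.32% and 1.61%. At 119 distal peaks (7.77%, against 8.4% of all peaks) the lowest brain library exceeded the highest lung library, and at 99 the reverse held (6.46%, against 4.94%). When libraries were scaled by all their reads, mitochondrial ones included, the median of all peaks moved to -3.34 and the calls at distal peaks to 22 for brain and 1200 for lung (1.44% and 78.5%, against 0.673% and 80.3% of all peaks). The brain share lay below that of all peaks with edgeR's filterByExpr (0.849%, against 2.43%), without replicate 1 of lung at 50 nuclei (11.3%, against 14.0%) and without replicates 2 and 3 of lung at 50 (9.36%, against 9.97%). The count of 221 also rested on single libraries, and the share of all peaks called fell or rose with it. Without replicate 2 or 3 of lung at 200 nuclei, 8.91% or 7.44% of distal peaks were called, against 6.00% or 5.46% of all peaks. It was 104 or 108 without replicate 1 or 2 of brain at 200 nuclei, and 112 or 91 without replicate 1 or 2 of brain at 50. It was 136 or 113 without replicate 2 or 3 of lung at 200. Without replicate 3 of lung at 50 it was 339, or 22.2%, against 17.5% of all peaks.

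Distal peaks higher in brain were narrower than those without a call, and those higher in lung were wider and higher. The 115 brain-higher peaks had a median width of 102 bp, a median level of 8.89 RPM and a median log2 fold change of 4.60. The 106 lung-higher peaks had a median width of 311.5 bp, a level of 23.7 RPM and a log2 fold change of -2.73, or -2.70 with 4 peaks that had no brain read set to a floor of 3 reads over the brain libraries. Peaks without a call had medians of 125 bp and 7.35 RPM. The widths were ordered alike in other classes, with medians for brain-higher and lung-higher peaks of 113 and 304.5 bp at other intergenic, 117 and 303.5 bp at gene-body, 182 and 358 bp at gene-end and 130 and 312 bp at all nuclear peaks. Among the 130 distal peaks wider than 300 bp, 58 were called higher in lung, or 44.6%, and 2 in brain. The share higher in lung at that width was 34.5% of other intergenic peaks, 24.0% of gene-body peaks and 2.97% of gene-end peaks. At 100 bp or less, 53 of 423 distal peaks, or 12.5%, were called higher in brain and 2 in lung, and 8.48% of all nuclear peaks of that width were called higher in brain. Of the 118 distal peaks at 20 to 50 RPM, 50 were called higher in lung, or 42.4%, against 11.7% of all nuclear peaks of that level. Depth differed between the tissues, as given above, and its part in the widths and levels at which calls were made was not tested. In simulated counts with these nuclear totals, the test called 100% of 50 peaks set 16-fold higher in brain. It called 42% of 50 peaks set 16-fold lower in brain. At 4-fold the shares were 22% for higher and 10% for lower. Calls in the directions of brain and lung were thus not equally easy to reach there.

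**Figure D2:**
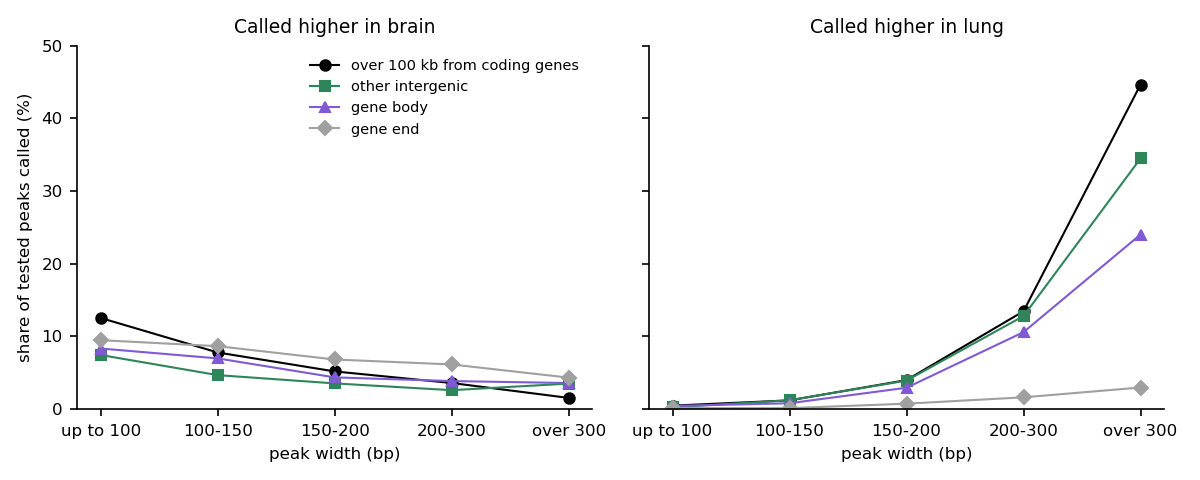
Share of tested peaks (%) called higher in brain (left) and in lung (right) by edgeR, by peak width in bp, for 4 classes of peaks by their place relative to coding genes. In distal peaks the share higher in lung rises to 44.6% over 300 bp, and the share higher in brain is 12.5% at up to 100 bp.

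**Figure D3:**
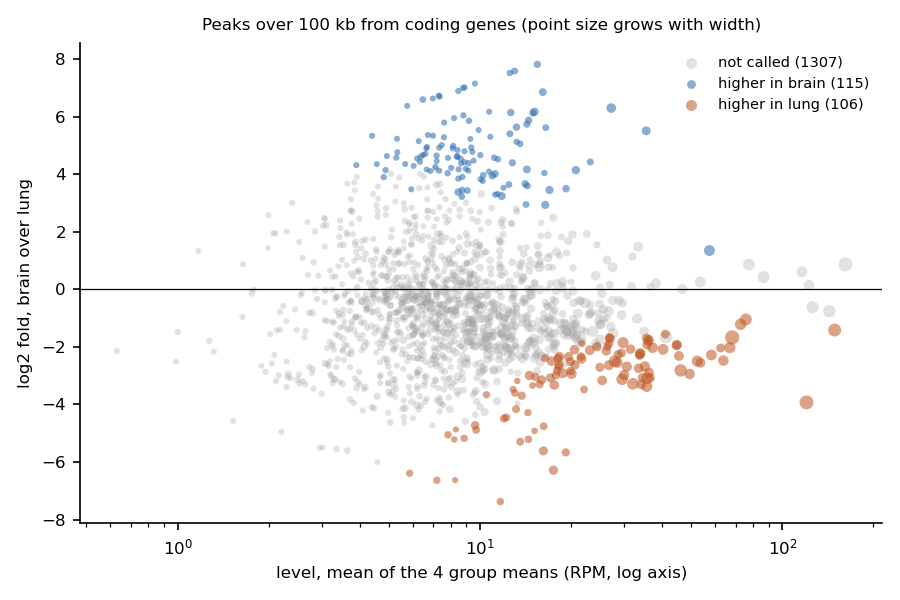
Log2 fold change, brain over lung, against level in RPM on a log axis for the 1528 distal peaks tested. Each point is a peak, its area grows with width, and colour marks the 115 called higher in brain, the 106 called higher in lung and the 1307 without a call. The called peaks of brain are small points with a median level of 8.89 RPM, and those of lung are larger points with a median of 23.7 RPM.

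The balance of the calls varied with distance from coding genes, set against 5.78% of all peaks higher in brain and 4.35% in lung. Of the peaks at 100 to 150 kb, 6.19% were higher in brain and 7.86% in lung, and at 150 to 200 kb 5.96% and 8.15%. At 200 to 500 kb these shares were 8.58% and 5.85%. Of the 98 peaks beyond 500 kb, 15 were higher in brain and 3 in lung, or 15.3% and 3.06%. Median width and level fell along the same distances, and the difference between distances was not tested.

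The lowest p among the brain-higher distal peaks was that of chr14:76255119-76255408, 289 bp wide, between Nufip1 (118 kb) and Tsc22d1 (159.7 kb), a leucine-zipper gene induced by TGF-beta. Its brain libraries held 71.1 and 34.4 RPM at 50 nuclei and 97.8 and 73.04 RPM at 200, and its lung libraries lowest 0, median 0 and highest 5.87 RPM. All brain libraries stood above all lung libraries, with means of 69.1 ± 26.1 RPM (SD, n = 4) and 1.83 ± 2.85 RPM (SD, n = 6). The log2 fold change was 5.50 ± 0.79 (SE), adjusted p 1.2e-05. At chr13:102573553-102573903, inside the lncRNA gene Gm29927 and 119.8 kb from Cd180, a Toll-like receptor family gene of B cells, brain held 35.6 and 53.2 RPM at 50 nuclei and 62.7 and 60.2 RPM at 200. Lung there had lowest 0, median 0 and highest 6.65 RPM, again with no overlap. The log2 fold change was 6.29 ± 0.96 (SE), adjusted p 3.8e-05.

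At several brain-higher peaks lung had no read at all. The peak chr1:190280116-190280286 lies 109 kb from Prox1, a homeobox gene of lymphatic endothelium and of granule neurons in the hippocampus, and held 35.6 and 18.8 RPM at 50 nuclei and 35.1 and 34.4 RPM at 200 in brain. That was 49 reads in brain and 0 in lung, so it was at least 82.6-fold higher in brain against a floor of 3 reads over the 6 lung libraries, adjusted p 8.9e-05. The peak chr5:99394672-99394817 lay in the lncRNA gene A930011G23Rik, 142 kb from Rasgef1b. It had 32.8 and 21.9 RPM at 50 nuclei and 15.04 and 34.4 RPM at 200 in brain. It was at least 69.2-fold higher there, adjusted p 0.000211. Beside Auts2, a gene of brain development, 349.5 kb away, the peak chr5:132892681-132892797 had 19.2 and 37.6 RPM at 50 nuclei and 20.1 and 23.6 RPM at 200 in brain and was at least 64.1-fold higher, adjusted p 0.000260. Over all distal peaks, 12 had no lung read and all 12 were called higher in brain, while 14 had no brain read, of which 4 were called higher in lung. Among all 37466 peaks tested, 73 had no lung read and 111 no brain read. A tested peak without a lung read had at least 10 reads in the shallower brain libraries. The read filter thus favoured these brain calls in advance, and their number is not evidence of a tissue difference. The same limit applies to the adjusted p of each such peak, here and in the next paragraph. The limit a count of 0 allows was 0.383 RPM over the lung libraries and 1.94 RPM over the brain libraries.

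A pair of distal peaks 29 bp apart, between Phyhipl and Bicc1, which encodes an RNA-binding protein, was brain-higher at both members. The narrow one, chr10:70806917-70807007, 90 bp wide, held 16.4 and 21.9 RPM at 50 nuclei and 15.04 and 23.6 RPM at 200 in brain and no read in lung, and was at least 50.6-fold higher, adjusted p 0.000552. Its neighbour chr10:70807036-70807240 held 24.6 and 25.1 RPM at 50 nuclei and 37.6 and 40.8 RPM at 200 in brain and 2 reads in all of lung, a ratio of 129-fold (95% counting interval 33.9 to 1094), adjusted p 0.000265. The peak chr9:122572265-122572402 lay in the GC-rich 9530059O14Rik window printed above, upstream of the start itself. It held 49.3 and 31.3 RPM at 50 nuclei and 27.6 and 21.5 RPM at 200 in brain. Lung had 3 reads there, which gave a ratio of 82.6-fold (95% counting interval 26.7 to 415), adjusted p 0.000339. The Gm32810 start, with 1 GC box, lies under chr1:112416865-112416965, which held 19.2 and 25.1 RPM at 50 nuclei and 15.04 and 8.59 RPM at 200 in brain and no lung read and was at least 42.2-fold higher, adjusted p 0.000844. The Gm6145 window holds a pair of brain-higher peaks. The wider one, chr14:105631275-105631373, held 8.21 and 18.8 RPM at 50 nuclei and 25.1 and 6.44 RPM at 200 in brain and no lung read, and was at least 37.1-fold higher, adjusted p 0.00121. Its neighbour chr14:105631394-105631486 held 8.21 and 12.5 RPM at 50 nuclei and 7.52 and 6.44 RPM at 200 in brain and 1 read in all of lung, a ratio of 65.8-fold (95% counting interval 9.88 to 2795), adjusted p 0.00747.

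The lung-higher distal peak with the lowest p, chr8:120876053-120876872, was 819 bp wide. It lies between Irf8 (119.8 kb), a transcription factor of macrophages and B cells, and Foxf1 (208 kb), a transcription factor of lung mesenchyme and endothelium. Lung held 273, 144, 228 RPM at 50 nuclei and 146, 253, 310.2 RPM at 200, and brain 27.4 and 9.40 RPM at 50 nuclei and 5.01 and 17.2 RPM at 200. The lowest lung library stood above the highest brain library, with means of 226 ± 67.99 RPM (SD, n = 6) and 14.7 ± 9.81 RPM (SD, n = 4). The log2 fold change was -3.93 ± 0.38 (SE), adjusted p 6.2e-09.

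Further lung-higher peaks lay beside Ets-family transcription factor genes, which act in endothelium and blood cells. At chr16:95861254-95861674, 140.4 kb from Ets2 and in the lncRNA gene 1600002D24Rik, lung held 55.4, 76.3, 129.6 RPM at 50 nuclei and 62.6, 115, 87.1 RPM at 200, and brain 16.4 and 9.40 RPM at 50 nuclei and 10.03 and 8.59 RPM at 200. The log2 fold change was -2.95 ± 0.44 (SE), adjusted p 2.7e-05, and the tissues did not overlap. At chr9:32901164-32901807, 144 kb from Ets1 and 1584 kb from Kirrel3 on the other side, an adhesion molecule of neurons, lung held lowest 50.98, median 82.98 and highest 96.9 RPM. Brain held 13.7 and 9.40 RPM at 50 nuclei and 17.6 and 4.30 RPM at 200, below every lung library, a log2 fold change of -2.82 ± 0.46 (SE) with adjusted p 7.5e-05. Farther into the same interval, chr9:33101254-33101490 had lung values of lowest 28.4, median 32.98 and highest 51.5 RPM and only 3 brain reads in all, adjusted p 0.000497.

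A pair of lung-higher peaks lay between Arglu1 and Fam155a, a gene for a subunit of the sodium leak channel. The one at chr8:8994545-8994978 held lowest 69.9, median 97.98 and highest 172 RPM in lung and 24.6 and 6.26 RPM at 50 nuclei and 25.1 and 19.3 RPM at 200 in brain, a log2 fold change of -2.48 ± 0.38 (SE) with adjusted p 3.8e-05. The other, chr8:8819262-8819767, held lowest 35.2, median 65.00 and highest 94.9 RPM in lung and 13.7 and 6.26 RPM at 50 nuclei and 2.51 and 4.30 RPM at 200 in brain, -3.37 ± 0.56 (SE) with adjusted p 0.000100. Neither overlapped between the tissues. At chr2:92742070-92742437, over the start of Gm13816 printed above and between Chst1, a sulfotransferase gene, and Syt13, lung held lowest 66.6, median 91.6 and highest 114 RPM and brain 21.9 and 21.9 RPM at 50 nuclei and 7.52 and 12.9 RPM at 200, -2.55 ± 0.40 (SE) with adjusted p 5.1e-05. At chr5:118981037-118981520, between Med13l, a Mediator subunit gene, and Tbx3, a T-box transcription factor gene, lung held lowest 65.4, median 89.5 and highest 114 RPM and brain 35.6 and 12.5 RPM at 50 nuclei and 12.5 and 6.44 RPM at 200, -2.50 ± 0.42 (SE) with adjusted p 0.000114. The last of the 8, chr5:64682286-64682610 beside Tbc1d1, was the most even of these. Lung averaged 61.8 ± 5.003 RPM (SD, n = 6) and brain 7.11 ± 0.920 RPM (SD, n = 4), -3.07 ± 0.52 (SE) with adjusted p 0.000136. All 16 peaks of these sets kept their calls without any 1 library. With edgeR's filterByExpr, a stricter read filter, several of the 8 brain-higher peaks were not tested. Of all 57 called distal peaks examined singly, that filter left 31, of which 26 kept the call.

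**Figure D4:**
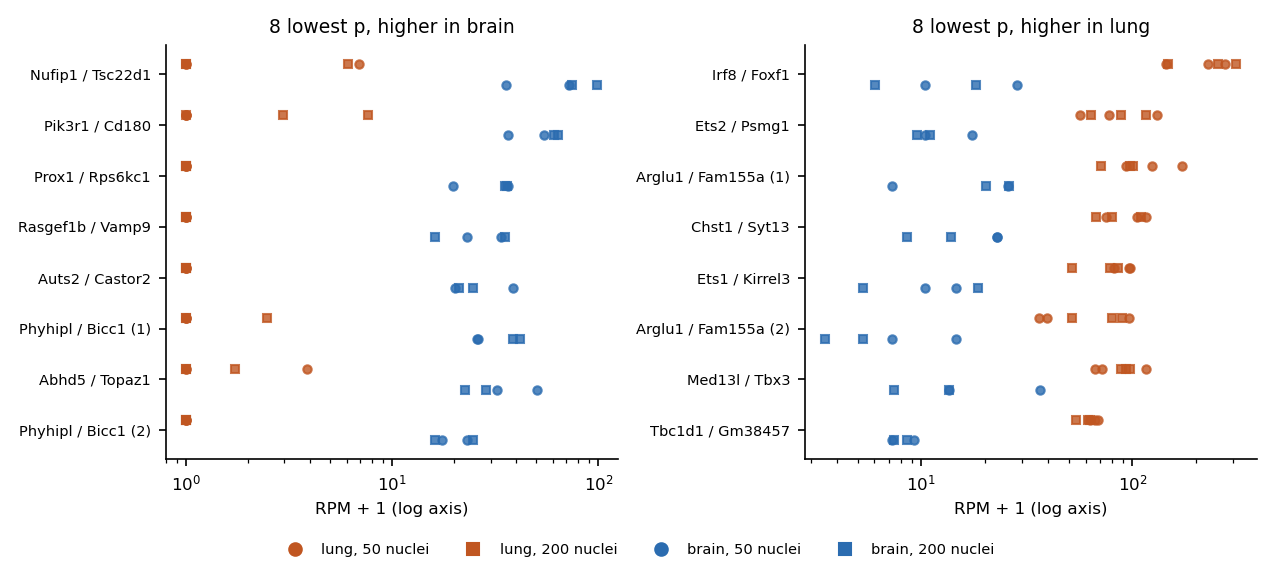
RPM + 1 on a log axis in each of the 10 libraries for the 8 brain-higher (left) and 8 lung-higher (right) distal peaks of lowest p, named by the coding genes on either side, with a number where a pair of peaks shares them. Circles are libraries of 50 nuclei and squares of 200, and at each of the 16 peaks the points of lung and brain do not overlap.

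Several of the 6 highest distal peaks were open in both tissues and had no call. Among the 20 distal peaks over 50 RPM, 11 were called higher in lung and 1 in brain, or 55% and 5%. Of all nuclear peaks at that level, 6.70% were called higher in lung and 4.26% in brain. At chr1:7397590-7398421, 831 bp over the start of Gm26901, lung held 134, 23.5, 98.6 RPM at 50 nuclei and 179.5, 154, 107 RPM at 200 and brain 142 and 251 RPM at 50 nuclei and 191 and 247 RPM at 200. Replicate 2 of lung at 50 nuclei was far below the others there. The means were 116 ± 54.2 RPM (SD, n = 6) and 208 ± 51.5 RPM (SD, n = 4), and the log2 fold change of 0.87 ± 0.29 (SE) missed the threshold, adjusted p 0.0524. The peak chr12:29290966-29291397, 236 kb from Myt1l, a zinc finger gene of neurons, held lowest 106, median 114 and highest 139 RPM in lung and 142 and 106 RPM at 50 nuclei and 138 and 125 RPM at 200 in brain, with a log2 fold change of 0.14 ± 0.25 (SE), adjusted p 0.762. Its ranges overlapped, and per 100 bp it stood at 28.4 RPM, against 19.5 at the Gm26901 peak.

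The other 4 of the 6 highest peaks, the one between Irf8 and Foxf1 among them, had higher means in lung. At chr4:55651049-55651741, 119 kb from Klf4, a transcription factor gene of epithelium and endothelium, lung held 195, 208, 323 RPM at 50 nuclei and 157, 182, 219 RPM at 200 and brain 46.5 and 59.5 RPM at 50 nuclei and 100.3 and 129 RPM at 200. The lowest lung library stood above the highest brain library, and the log2 fold change was -1.42 ± 0.26 (SE), adjusted p 0.000319. The peak chr15:68363103-68363721 beside Zfat, a zinc finger gene of blood and endothelial cells, had means of 181 ± 37.3 RPM (SD, n = 6) and 105 ± 30.8 RPM (SD, n = 4), adjusted p 0.0516. The peak chr6:31216388-31216996 in the lncRNA gene Lncpint had 154 ± 17.2 RPM (SD, n = 6) and 97.9 ± 20.4 RPM (SD, n = 4), adjusted p 0.115. Lower than these 6 stood a pair of peaks over lncRNA promoter windows, both with higher means in brain and no call. Over the start of Dubr, chr16:50732444-50732925 held lowest 14.7, median 56.3 and highest 63.9 RPM in lung and 54.7 and 53.2 RPM at 50 nuclei and 67.7 and 58.00 RPM at 200 in brain, 0.25 ± 0.38 (SE) on the log2 scale with adjusted p 0.723. The peak chr9:41474708-41474863 lay in the window of Mir100hg, the host gene of microRNAs of the miR-100 and let-7 families, upstream of its start. Lung held lowest 0, median 8.23 and highest 41.99 RPM there. Brain held 24.6 and 40.7 RPM at 50 nuclei and 30.1 and 47.3 RPM at 200, with overlapping ranges and adjusted p 0.140.

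The peak farthest from any coding gene, chr6:75357359-75357468, lay 1524 kb from Ctnna2, a catenin gene of neurons. Brain held 10.9 and 34.4 RPM at 50 nuclei and 5.01 and 4.30 RPM at 200 and lung lowest 0, median 0 and highest 11.7 RPM, with overlap, since replicate 2 of lung at 50 nuclei was the one lung library with reads. The log2 fold change was 4.03 ± 1.20 (SE), adjusted p 0.0254. The call was lost without either brain library of 200 nuclei (0.106 without replicate 1 and 0.0901 without replicate 2), without replicate 2 of brain at 50 (0.116), and without any lung library of 200 (0.0690, 0.0719 and 0.0947 without replicates 1, 2 and 3). The peak chr16:83424143-83424233, 1294 kb from Mrpl39 and 1799.9 kb from Ncam2, a neural cell adhesion gene, held 16.4 and 9.40 RPM at 50 nuclei and 5.01 and 10.7 RPM at 200 in brain and 2 reads in all of lung, a ratio of 40.5-fold (95% counting interval 9.52 to 363), adjusted p 0.00996. Without replicate 2 of brain at 200 nuclei its adjusted p was 0.0657. The other peaks of the farthest 4, chr8:6572454-6572544 beside Slc10a2 and chr8:50916638-50916753 beside Tenm3, were not called (adjusted p 0.157 and 0.0624). The widest, chr13:42565192-42566058, 866 bp between Edn1, the gene of the vasoconstrictor endothelin, and Phactr1, held 78.2, 96.9, 51.1 RPM at 50 nuclei and 89.8, 176, 139 RPM at 200 in lung and 41.05 and 21.9 RPM at 50 nuclei and 42.6 and 19.3 RPM at 200 in brain. Lung stood above brain throughout, with a log2 fold change of -1.68 ± 0.36 (SE) and adjusted p 0.00175.

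At each mini-bulk size alone fewer distal peaks were called. At 50 nuclei 23 were called, or 1.51%, against 1.41% of all peaks. Of these 11 were higher in brain (0.720%, against 0.918%) and 12 in lung (0.785%, against 0.488%). At 200 nuclei 52 were called, or 3.40%, against 2.23%. Of these 25 were higher in brain (1.64%, against 1.01%) and 27 in lung (1.77%, against 1.22%). All of these were among the 221, and all 221 had the same sign at both sizes. No distal peak passed the test of a tissue difference that depends on size, nor the test of 200 against 50 nuclei averaged over the tissues, by edgeR or DESeq2, and the share called over all peaks was 0 in both edgeR tests. At an unadjusted p under 0.05 edgeR's first test gave 80 distal peaks, or 5.24%, against 4.09% of all peaks. The second gave 57, or 3.73%, against 3.69%. The counts at one size rested on single libraries, and the share of all peaks called moved with them. Without either brain library of 50 nuclei the count at 50 fell to 1 or 0, and without either brain library of 200 nuclei the count at 200 fell to 1 or 2.

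Distal peaks stood in groups. Chained at gaps of up to 50 kb they formed 853 groups, of which 552 were single peaks and 52 held 5 or more. The largest, with 14 peaks over 242 kb (chr4:95153959-95396043), began 102 kb from Jun, a gene of the AP-1 transcription factor, and its first peaks overlapped the lncRNA gene Junos. Summed over the group, lung held 257, 599, 225, 413, 456 and 503 RPM and brain 109, 119, 158 and 172. All lung libraries lay above all brain libraries, and 4 of the 14 peaks were called higher in lung. The call at chr4:95153959-95154222, -2.31 ± 0.52 (SE) on the log2 scale with adjusted p 0.00289, was kept without any 1 library. The call at chr4:95156898-95157256 was lost without replicate 1 of brain at 200, replicate 2 of brain at 50 or replicate 2 of lung at 50 (adjusted p up to 0.0747). That at chr4:95161186-95161712 was lost without replicate 1 of brain at 200, either brain library of 50 or replicate 3 of lung at 200 (up to 0.0932). That at chr4:95385616-95385930 was lost without replicate 2 of brain at 200, either brain library of 50 or replicate 2 or 3 of lung at 200 (up to 0.124).

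The group between Gm5148 and Ankrd50, an ankyrin repeat gene of endosomal sorting, had 13 peaks over 169 kb (chr3:37846766-38016190). It summed to 213, 217, 307, 181, 187 and 238 RPM in lung and 93.0, 56.4, 75.2 and 49.4 in brain, again with no overlap, and 3 of its peaks were called higher in lung. The call at chr3:37907644-37908085 was lost without replicate 2 of brain at 50 or at 200 nuclei (adjusted p up to 0.0613). The neighbouring calls at chr3:37875660-37875951 and chr3:37876148-37876514 were lost without any brain library or without replicate 2 or 3 of lung at 200 (up to 0.118 and 0.133). The group in and beside Lncpint, between Klf14 and Mkln1, had 11 peaks over 178 kb (chr6:31075926-31253494) and summed to 326, 329, 272, 279, 321 and 347 RPM in lung and 205, 229, 211 and 228 in brain. Only chr6:31079679-31079815 was called there, higher in lung, with adjusted p 0.0492. That call was lost without each of 7 libraries (any brain library or any lung library of 200 nuclei), with adjusted p up to 0.184.

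**Figure D5:**
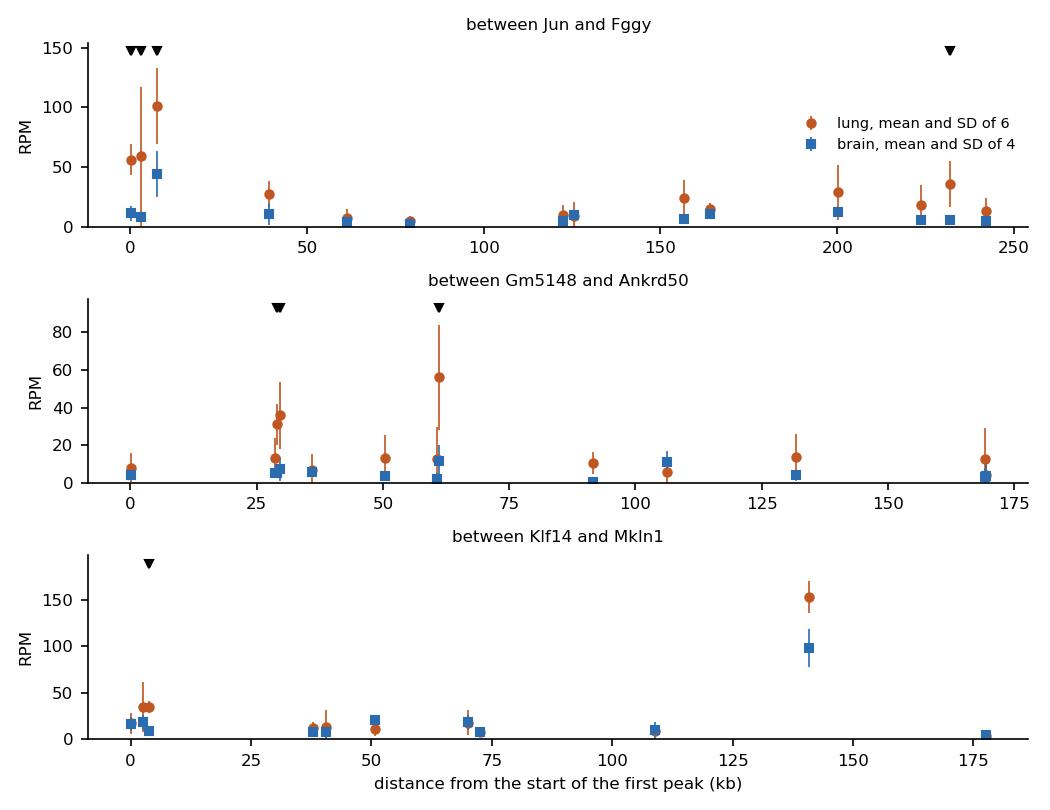
RPM of each distal peak in the 3 largest groups against the distance from the start of the group's first peak in kb. Points are means and bars the SD over 6 lung or 4 brain libraries, and triangles mark peaks called higher in lung. The called peaks stand at the Jun end of the first group, with 1 more near its far end, and the highest peak of the Lncpint group has no call.

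Calls in one interval between coding genes could go either way. Of the 161 intervals with a called distal peak, 37 held 2 or more. In 19 of these all called peaks were higher in lung, in 9 all were higher in brain, and in 9 both directions occurred. Among the 162 pairs of neighbouring distal peaks with a gap of up to 500 bp, both were called in 5, and the direction was the same in all 5.

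Distal peaks often flanked genes of the regulatory lists drawn up for this comparison. The lists were chosen with earlier results of these data known, so the shares below are descriptions only. Of the 1532, 181, or 11.8%, had a gene from a list of 110 developmental transcription factors as the nearest coding gene on one side, against 2.42% of other intergenic peaks. For 93 neuronal adhesion and synapse genes the shares were 3.92% and 0.827%, and for 86 vascular and lung regulators 11.1% and 4.23%. The lists share some genes, an interval has a gene at each end, and 1 gene can flank many peaks. Counted by genes, 48 of the transcription factors flanked a distal peak and 71 another intergenic peak. For the adhesion list these counts were 30 and 39, and for the vascular and lung list 34 and 70. Of the 57 called distal peaks examined singly, including those beside listed genes, 30 kept the call without any 1 library and 27 lost it without at least 1. Over all peaks, 5.78% were called higher in brain and 4.35% in lung, with a median log2 fold change of 0.07. Beside transcription factor genes, 10 of 180 tested distal peaks were called higher in brain and 11 in lung (5.56% and 6.11%), with a median log2 fold change of -0.57, so the brain share was close to that of all peaks. At other intergenic peaks beside them the calls were 19 and 15 of 208 (9.13% and 7.21%), with a median of -0.28. Beside neuronal adhesion genes 10 of 60 distal peaks were higher in brain and 2 in lung (16.7% and 3.33%), with a median of -0.37, so that count and median differed in direction. Other intergenic peaks beside these genes had 3 and 1 of 71 (4.23% and 1.41%), with a median of 0.44. Beside vascular and lung regulators 5 of 170 distal peaks were higher in brain and 23 in lung (2.94% and 13.5%), with a median of -1.53. The counts at other intergenic peaks beside them were 4 and 63 of 363 (1.10% and 17.4%), with a median of -1.16.

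Among the transcription factors, Tbx3 flanked 16 distal peaks, of which 3 were higher in lung and 1 in brain. The peak chr5:119464526-119465089, 206 kb from Tbx3, held lowest 45.99, median 57.9 and highest 86.4 RPM in lung and 13.7 and 15.7 RPM at 50 nuclei and 0 and 6.44 RPM at 200 in brain, -3.09 ± 0.56 (SE) on the log2 scale with adjusted p 0.000276. Of the other Tbx3 calls, that at chr5:119052564-119052862 was lost without any library but replicates 1 and 2 of lung at 50 (adjusted p up to 0.2203) and the brain call at chr5:119213821-119213911 without 3, which were replicate 1 of brain at 200, replicate 2 of brain at 50 and replicate 3 of lung at 200 (adjusted p up to 0.235). Sox2, a gene of neural progenitors, flanked 2 distal peaks and both were higher in brain. At chr3:34445541-34445633, 204 kb away, brain held 5.47 and 12.5 RPM at 50 nuclei and 20.1 and 19.3 RPM at 200 and lung 2 reads in all, a ratio of 58.2-fold (95% counting interval 14.4 to 509), adjusted p 0.00441. The other call, at chr3:34532606-34532708, with 19.2 and 15.7 RPM at 50 nuclei and 27.6 and 12.9 RPM at 200 in brain and lowest 0, median 0.711 and highest 4.55 RPM in lung, was lost without replicate 1 of brain at 200, either brain library of 50 or replicate 1 or 2 of lung at 200 (adjusted p up to 0.108). Tcf4, a helix-loop-helix factor gene of neurons, flanked 7, of which 2 were higher in brain. The stronger of these, 367 kb away, held 24.6 and 15.7 RPM at 50 nuclei and 25.1 and 34.4 RPM at 200 in brain and lowest 0, median 0 and highest 2.22 RPM in lung, adjusted p 0.00157. The other call was lost without replicate 2 of brain at 200 (adjusted p 0.104), replicate 2 of brain at 50 (0.0851) or replicate 3 of lung at 200 (0.0606). Beside Myc, 2 of 11 were higher in brain, among them chr15:62258112-62258217 in the lncRNA gene Pvt1, with 19.2 and 31.3 RPM at 50 nuclei and 10.03 and 10.7 RPM at 200 in brain and lowest 0, median 0.366 and highest 2.77 RPM in lung, adjusted p 0.00978. The other Myc call, at chr15:63590014-63590104, was lost without any library but replicate 1 of lung at 200 and replicate 3 of lung at 50. Without replicate 2 of brain at 200 its adjusted p was 0.9999.

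Of the vascular and lung genes, Klf4 flanked 16 distal peaks, 3 of them higher in lung. Besides the high peak given above, chr4:56113686-56114195 held 125, 20.5, 74.8 RPM at 50 nuclei and 134, 157, 140.1 RPM at 200 in lung and 32.8 and 18.8 RPM at 50 nuclei and 20.1 and 30.1 RPM at 200 in brain, -2.03 ± 0.40 (SE) with adjusted p 0.000734, and replicate 2 of lung at 50 nuclei lay within the brain range. The third Klf4 call, at chr4:55672437-55672618, was lost without any library but replicates 2 and 3 of lung at 50 (adjusted p up to 0.183). Ets2 flanked 10, also with 3 higher in lung, the second being chr16:95825102-95825476 with lowest 55.4, median 80.7 and highest 88.8 RPM in lung and 13.7 and 9.40 RPM at 50 nuclei and 27.6 and 10.7 RPM at 200 in brain, -2.32 ± 0.44 (SE) with adjusted p 0.000458. The third, at chr16:95831610-95831894, was lost without replicate 2 of brain at 200, either brain library of 50 or replicate 2 of lung at 200 (up to 0.0921). Klf6 flanked 9, of which 2 were higher in lung and 1 in brain. At chr13:4771496-4771783, in the interval between Akr1e1 and Klf6, lung held lowest 63.7, median 86.2 and highest 164 RPM and brain 16.4 and 28.2 RPM at 50 nuclei and 15.04 and 32.2 RPM at 200, -2.04 ± 0.38 (SE) with adjusted p 0.000333. The second lung call, at chr13:5592546-5592891, was lost without any brain library or any lung library of 200 (up to 0.176). The brain call, at chr13:6191963-6192055, was lost without replicate 1 of brain at 200, replicate 2 of brain at 50 or replicate 2 or 3 of lung at 200 (up to 0.152). Foxf1 flanked 8, 2 higher in lung, of which the one at chr8:120972041-120972495 was lost without replicate 2 of brain at 50 or at 200 (up to 0.0809). Ets1 flanked 12, of which 2 were higher in lung and kept the call without any 1 library.

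For the neuronal adhesion genes, Lsamp, which encodes a limbic membrane protein, flanked 2 distal peaks, both higher in brain. At chr16:39303106-39303196 brain held 8.21 and 9.40 RPM at 50 nuclei and 12.5 and 10.7 RPM at 200 and lung lowest 0, median 0.277 and highest 1.46 RPM, adjusted p 0.0138. At chr16:39402618-39402727 brain held 10.9 and 18.8 RPM at 50 nuclei and 15.04 and 17.2 RPM at 200 and lung lowest 0, median 1.11 and highest 2.93 RPM, adjusted p 0.0154. Brain and lung did not overlap at either, but both calls were lost without replicate 2 of brain at 50 nuclei (adjusted p 0.0590 and 0.0791) and without replicate 3 of lung at 200 (0.0541 and 0.0516). The 2 lung-higher peaks of this list were those between Ets1 and Kirrel3, and both lie nearer to Ets1.

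Most distal peaks touched no annotated gene of any kind. This held for 1067, or 69.6%, while 450, or 29.4%, overlapped a lncRNA gene and 15 overlapped another non-coding gene or pseudogene only. Those in lncRNA genes had a median width of 141 bp and level of 8.81 RPM, and those in no gene 123 bp and 7.58 RPM. Of 448 tested in lncRNA genes, 38 were higher in brain and 33 in lung (8.48% and 7.37%), and of 1065 tested in no gene 76 and 71 were (7.14% and 6.67%). Within 1 kb of a non-coding gene end lay 145, and of the 144 of them tested 12 were higher in brain and 10 in lung (8.33% and 6.94%, against 7.53% and 6.94% of all distal peaks).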

How the data were processed

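The authors deposited 1 table of raw read counts, whole numbers not normalized, for 37513 peaks and 10 libraries, each used here. The build was mm10, per the submitters' processing notes, which list Bowtie2 2.4.5, Picard, MACS2 2.2.7.1 and SAMtools 1.14. Peak merging, the counting program, duplicate removal and any Tn5 shift of reads: not given in the sources used here. Duplicates left in the counts would raise the spread between libraries of few nuclei, and peak widths follow the authors' merging.

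Peaks were placed on RefSeq gene ends (GRCm38.p6, no strand or exons), with positions as deposited. RPM used nuclear-peak reads. Tests were edgeR 4.0.16 quasi-likelihood F tests with TMM on peaks with at least 10 reads, 4 tissue-by-size means and Benjamini-Hochberg over all peaks. Recovery on simulated data is given above. A log2 fold change comes from this fit. Group means and SDs are over libraries. Replicate numbers were not used to pair libraries. Named peaks were those of lowest p in each direction (8 each), the highest (6), farthest (4), widest (4), nearest to the limit (2 on each side), the peaks of the 3 largest groups and called peaks beside listed genes. Peaks over promoter windows were added after values were seen. The peak set and the gene lists were chosen with earlier results of these data known. Marker sums took peaks overlapping a gene or within 5 kb of its ends. No genome sequence was used.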

Additional observations from a re-analysis of the deposited data

How the results depend on the processing

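The 221 calls averaged over sizes (115 brain, 106 lung) were 14.5% of the distal peaks tested, against 10.1% of all peaks, and the share of all peaks moved with the setting too. They became 90 (11 brain) with edgeR's filterByExpr, or 6.94% of 1296 against 5.96%, 1222 (22 brain, 1200 lung) scaled by library totals, or 79.97% against 80.96%, and 432 (289 lung) without lung replicates 2 and 3 at 50 nuclei, or 28.3% against 22.3%. A limit of 50 kb gave 378 calls of 2903 (189 and 189), or 13.0%, one of 200 kb 92 of 611 (59 brain, 33 lung), or 15.1%, and distance to genes of every type 12 of 135 (7 brain, 5 lung), or 8.89%, each against 10.1% of all peaks. At 50 nuclei the 23 calls became 71 with DESeq2 (5.12%, against 4.79%), 13 with filterByExpr (1.0%, against 0.926%), 708 with library totals (46.3%, against 52.7%) and 73 without those 2 libraries (4.78%, against 4.07%). At 200 nuclei the 52 became 83 (7.54%, against 4.42%), 22 (1.70%, against 1.22%), 1196 (78.3%, against 78.5%) and 348 (22.8%, against 16.5%). The size test went from 0 to 1 without those libraries. Without any 1 library the averaged count ranged from 91 to 339 (brain 49 to 173, lung 42 to 201), the count at 50 nuclei from 0 to 81 and at 200 from 1 to 166. At the highest of these counts, 22.2%, 5.30% and 10.9% of distal peaks were called, against 17.5%, 7.68% and 7.33% of all peaks. The tissue-by-size and size tests stayed at 0, and the median log2 fold change ranged from -1.04 to -0.16. The read share ranged from 1.95% to 2.0% in lung and 1.29% to 1.37% in brain.

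Library totals shift all peaks toward lung. The median log2 fold change of distal peaks was then -3.99, and 389 of 523 with a positive value turned negative, 205 of them from no call to a call. Of the peaks described singly these included those over the promoter windows of Gm26901 (-2.58), Dubr (-3.17) and Mir100hg (-1.98) and the one beside Myt1l (-3.32). The share of nuclear reads was 4.03% in lung and 2.80% in brain at a 50 kb limit, 0.671% and 0.524% at 200 kb, and 0.148% and 0.0946% away from genes of every type, and the median width was 131, 119 and 126 bp. The cause of these changes was not tested, beyond the fewer peaks or libraries that a setting leaves.

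With the replicate number as a block the fit gave 110 calls (44 brain, 66 lung), or 7.20% against 5.41% of all peaks. It gave 14 at 50 nuclei (0.916%, against 0.940%) and 30 at 200 (1.96%, against 1.40%). Of the 57 single calls examined, 22 did not pass. Deviations of same-numbered libraries from their group means hardly correlated (r from -0.0302 to 0.0198 over 13 pairs of libraries). In a group of 2 these deviations mirror each other, and low counts can hide a shared one, so the check cannot exclude pairing. The numbers were not taken as pairs in the main fit. The DESeq2 test averaged over sizes gave 277 calls (20.0% of 1386, against 15.3% of all peaks), 213 of them among the 221. Depth limits the single peaks: the median distal peak had 2 or 3 reads in a brain library.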
